A study of Mus musculus with 9 samples.

Results

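The 7 genes described here encode the actin-severing proteins of the ADF/cofilin family and the enzymes that switch them off and on: Cfl1, Cfl2 and Dstn, the LIM kinases Limk1 and Limk2, and the slingshot phosphatases Ssh1 and Ssh2. They were taken by symbol from the 26683 genes of a bulk RNA sequencing table of splenic regulatory T (Treg) cells. All 7 were present and all 7 were among the 12738 genes that passed the expression filter and were tested. The family was picked out because Cfl2 was already known to differ between the KO and WT libraries of this table, so the KO against WT values of the 7 genes are given as a description, with no test.

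The KO group held 4 libraries from EsrrgNf/f.Foxp3YFP-Cre mice and the WT group 5 libraries from B6N.Foxp3YFP-Cre mice, with 1 library per animal. All animals were labelled as females of 2 to 3 months. Both groups carry Cre recombinase and yellow fluorescent protein driven by Foxp3, the gene of the transcription factor that defines Treg cells. CD4+ cells with that fluorescence were sorted from each spleen, untreated as far as the labels say. In KO the gene Esrrg, which encodes the nuclear receptor estrogen-related receptor gamma, is floxed. Library names begin with Err in KO and with B6-N in WT, and a difference of colony behind these names cannot be told apart from genotype.

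Actin filaments grow at one end and are cut and taken apart towards the other. Cofilin 1 (Cfl1) is the form found in most cells, cofilin 2 (Cfl2) is known from striated muscle, and destrin (Dstn), also called actin depolymerizing factor, is best known from epithelial and neuronal cells. LIM kinases phosphorylate a serine near the start of these proteins and thereby stop them from binding actin, and slingshot phosphatases remove that phosphate. In T cells cofilin activity takes part in the actin turnover of the immunological synapse and of migration.

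The serine that LIM kinases phosphorylate is encoded at the start of all 3 severing genes. The opening 30 coding bases are shown because they hold the site on which the kinases and phosphatases act. They were read from GENCODE M21 transcripts (mm10), 5′ to 3′, with codon 3, the codon of that serine when the initiator methionine is counted as 1, in capitals.
Cfl1: atggccTCTggtgtggctgtctctgatggt
Cfl2: atggcaTCTggagttacagtgaatgatgaa
Dstn: atggccTCAggagttcaggttgcggatgaa
Codon 3 is TCT in Cfl1 and Cfl2 and TCA in Dstn. Over the coding sequence (498 bases in Cfl1 and Cfl2, 495 in Dstn, stop codon not counted) Cfl2 was identical to Cfl1 at 71.5% of aligned bases and to Dstn at 67.7%, and Dstn was identical to Cfl1 at 68.7%. The longest run of identical bases between the transcripts of any 2 of the 3 genes was 20, between Dstn and Cfl1, and it was 13 between Cfl2 and Cfl1. No stretch of 50 bases of the Dstn, Limk1, Limk2, Ssh1 or Ssh2 transcript occurred in a transcript of another gene. In Cfl2 1.18% of such stretches did, all in the divergent noncoding gene 1700081N11Rik. In Cfl1 23.0% did, in 5 genes that include Snx32, which overlaps it on the opposite strand, and the gene model Gm6180. Snx32 had at most 361 counts in any library, against at least 16120 for Cfl1.

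The libraries held 15386929 to 17425634 counts in KO and 15269014 to 16874301 in WT. Esrrg had 0 counts in every KO and every WT library, so its loss could not be checked. A count of 0 allows up to 0.0464 CPM (the share of library counts, scaled to 1000000) over the KO libraries together and 0.0371 CPM over the WT libraries, counting error alone. Foxp3 was at 538 to 593 CPM in KO and 523 to 598 CPM in WT. The 6 Treg and T cell markers checked (Cd3e, Cd4, Foxp3, Il2ra, Ctla4 and Ikzf2) summed to 4082 to 4440 CPM in KO and 4177 to 4411 CPM in WT. KO 4 and KO 1 stood apart. The 9 B and plasma cell markers summed to 4442 CPM in KO 4 and 1922 CPM in KO 1, against 973 and 1257 CPM in KO 2 and KO 3 and 892 to 1082 CPM in WT. All 9 had a higher mean in KO, and none was at 0 in all libraries. Of 7 tested, edgeR called 0, with 6 at an unadjusted p under 0.05, and DESeq2 called 2 and limma-voom 0. Over the 12738 tested genes edgeR called 418, DESeq2 919 and limma-voom 346. The share of these at an unadjusted p under 0.05 was not taken, so nothing is read from the 6. Platelet and erythroid markers summed to 5.32 to 24.8 CPM in KO and 7.40 to 19.5 CPM in WT, and CD8 and NK cell markers to 20.7 to 23.7 CPM in KO and 20.0 to 23.4 CPM in WT. KO 4 also held 27 counts of the X-inactivation transcript Xist, where the other 8 libraries held 27355 to 35693, which goes against its label as female. Many of the results that follow, though not all, are also given without these 2 libraries.

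Cfl2 was the member with the largest difference, and it was higher in every KO library than in every WT library. It was at 51.0, 43.7, 42.4 and 41.5 CPM in KO 1 to 4, from 653 to 888 counts, against 16.9, 24.4, 27.6, 23.6 and 23.5 CPM in WT 1 to 5, from 286 to 453 counts. The lowest KO library lay well above the highest WT library, WT 3, and WT 1 was the lowest of all. The means were 44.7 ± 4.29 CPM in KO and 23.2 ± 3.87 CPM in WT (SD, n = 4 and 5), and the log2 fold change (KO over WT) was 0.95 ± 0.11 (SE), a 1.93-fold difference. It was 0.98 without KO 4 and 0.91 without KO 1 and KO 4. Leaving out each library in turn gave 0.86 (without WT 1) to 1.01 (without WT 3). It ranked 261 from the highest log2 fold change among the 12738 tested genes.

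Cfl2 is known from muscle, and muscle and stroma markers were low in all KO libraries. The 11 markers of that list summed to 3.48 to 4.94 CPM in KO and 3.97 to 15.7 CPM in WT, and 4 of the 11 had a higher mean in KO. The highest sum was in WT 2, where Acta1, the skeletal muscle actin gene, reached 9.16 CPM, against at most 0.253 CPM in KO. The muscle creatine kinase gene Ckm and the desmin gene Des had at most 1 count in any library, and the cardiac myosin gene Myh7 had 0 in all 9. The collagen gene Col1a1, a stromal marker, went the other way, at 1.65 to 2.07 CPM in KO and 0.948 to 1.58 CPM in WT. It was the 1 of 3 tested markers of the list with an unadjusted p under 0.05, and edgeR, DESeq2 and limma-voom each called 0. The share of all tested genes at such a p was not taken, so nothing is read from this count. In bulk RNA, a change in how many cells of a type were sampled and a change in RNA per cell cannot be told apart.

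**Figure D1:**
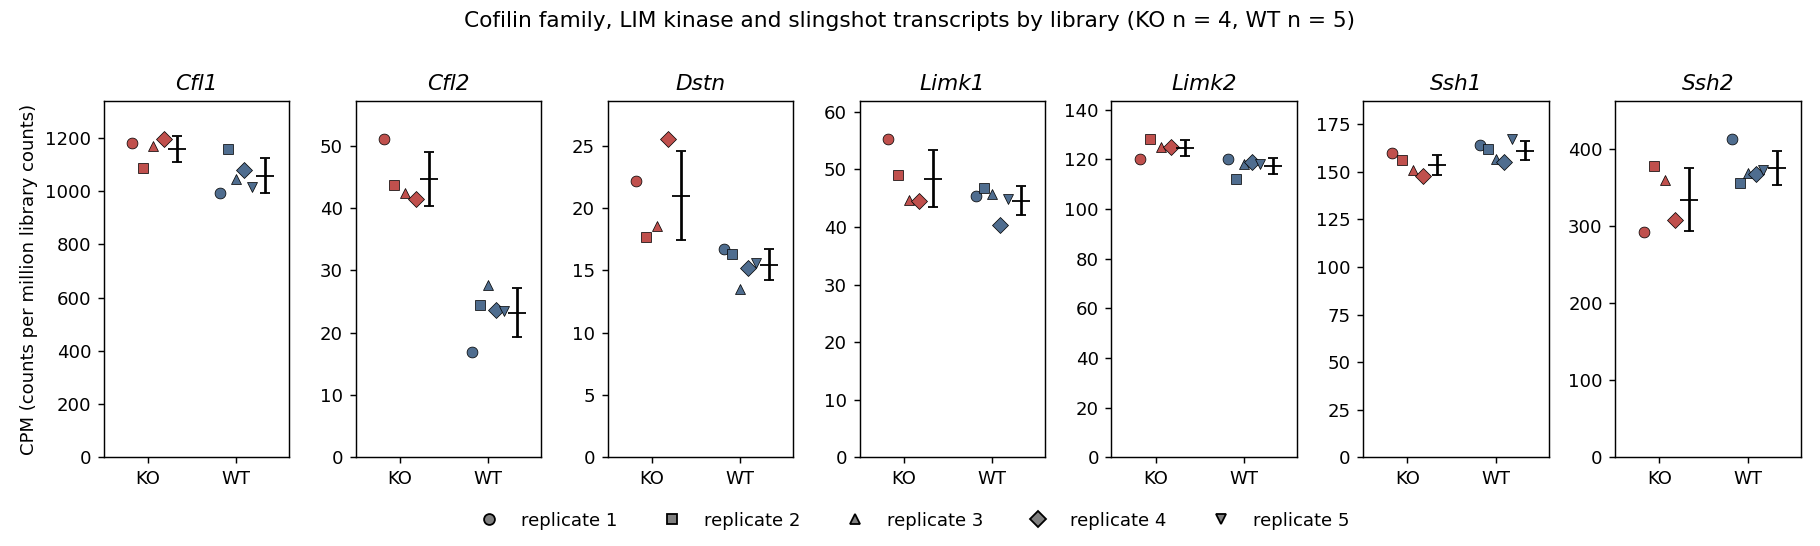
CPM of each of the 7 genes in every library, with KO (n = 4) left of WT (n = 5); symbols mark replicate numbers, and the bar beside each group is the mean ± SD. Cfl2 sits at 41.5 to 51.0 CPM in KO and 16.9 to 27.6 CPM in WT, and Dstn is the other gene whose groups do not overlap.

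Dstn was also higher in KO, by less and unevenly. It was at 22.2, 17.7, 18.6 and 25.5 CPM in KO 1 to 4, against 16.7, 16.3, 13.5, 15.2 and 15.6 CPM in WT 1 to 5. The groups did not overlap, but KO 2 lay only just above WT 1, and the high values were those of KO 4 and KO 1. The means were 21.0 ± 3.57 CPM in KO and 15.5 ± 1.27 CPM in WT, and the log2 fold change was 0.44 ± 0.10 (SE). KO 4 and KO 1 are the libraries with the highest sums of B and plasma cell markers (4442 and 1922 CPM). They also had the highest sums of the 9 myeloid markers, at 125 and 77.0 CPM, against 22.8 and 40.8 CPM in KO 2 and KO 3 and 18.3 to 65.0 CPM in WT. The part of these cells in the Dstn values was not tested. Without KO 4 the log2 fold change was 0.34, and without KO 1 and KO 4 it was 0.24.

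Cfl1 was by far the most abundant of the 3 severing genes, with overlapping groups. It was at 1181, 1086, 1169 and 1193 CPM in KO 1 to 4, against 991, 1157, 1045, 1080 and 1016 CPM in WT 1 to 5. WT 2 lay above KO 2, and the other 3 KO libraries lay above all WT libraries. The means were 1157 ± 48.6 CPM in KO and 1058 ± 64.6 CPM in WT, with a log2 fold change of 0.13 ± 0.05 (SE), 0.12 without KO 4 and 0.11 without KO 1 and KO 4.

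Of the 7 genes, 2 (Cfl2 and Dstn) were among the genes called at an edgeR adjusted p under 0.05, where 3.28% of all tested genes were called, 1.40% as higher and 1.88% as lower in KO. The same 2 had groups that did not overlap, as did 9.10% of all tested genes (3.94% with KO higher). Since the family was chosen on this contrast, nothing is read from these counts. Cfl2 was among the called genes in 9 of 9 fits that left out 1 library and without KO 1 and KO 4. Dstn was called in 3 of those 9, and not without WT 3, WT 4, WT 5, KO 1, KO 3 or KO 4. Cfl1 was called in 1, without WT 2. With a replicate block by title number none of the 7 genes was called. These fits repeat the contrast on which the family was chosen, so nothing is read from their calls either. The median log2 fold change was 0.12 over the 7 genes and 0.00518 over all tested genes.

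The makeup of the severing pool differed in the share of Cfl2. With CPM divided by the length of each gene's merged exons, so that genes of different length can be compared, Cfl2 made up 3.53, 3.31, 2.99 and 2.85% of the sum of the 3 genes in KO 1 to 4, against 1.43, 1.77, 2.21, 1.83 and 1.93% in WT 1 to 5. No KO library overlapped a WT library in this share. The mean Cfl2 share in KO was 3.17%, and 3.15% without KO 1 and KO 4. Cfl1 held 94.3% ± 0.385 of the sum in KO and 96.1% ± 0.145 in WT (SD), and Dstn held 2.53% ± 0.348 in KO and 2.09% ± 0.217 in WT. The Dstn shares overlapped, with 2.24 to 2.99% in KO and 1.84 to 2.41% in WT. For each Cfl2 unit there were 30.0 ± 2.89 Cfl1 units in KO and 53.5 ± 8.69 in WT (ratio of CPM per kilobase). The pool as a whole was 432 ± 18.8 CPM per kilobase in KO and 387 ± 23.3 in WT, and its ranges overlapped (404 to 446 in KO, 362 to 423 in WT).

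The order of the 7 levels per length had Cfl1 far ahead and the Cfl2 place differing between the groups. Cfl1 was at 407 ± 17.1 CPM per kilobase in KO and 372 ± 22.7 in WT (SD). Limk2, Ssh2 and Ssh1 followed at 20.4 ± 0.597, 18.1 ± 2.18 and 17.3 ± 0.608 CPM per kilobase in KO, and at 19.3 ± 0.495, 20.3 ± 1.17 and 18.1 ± 0.552 in WT. Limk2 and Ssh2 overlapped in both groups, so their order is not settled, and Ssh2 and Ssh1 overlapped in KO. Cfl2 stood at 13.7 ± 1.31 in KO, above Dstn at 11.0 ± 1.87, but at 7.10 ± 1.19 in WT, below Dstn at 8.09 ± 0.662. The ranges of Cfl2 and Dstn overlapped in both groups. Limk1 had the lowest mean, at 6.76 ± 0.696 in KO and 6.23 ± 0.340 in WT, but its WT range (5.64 to 6.52) lay inside that of Cfl2 (5.19 to 8.45), so the last place is not settled in WT. With the longest transcript as the length, Limk1 moved up to place 6 in KO and 5 in WT. Dstn then took place 7 in KO and 6 in WT, and Cfl2 place 5 in KO and 7 in WT. Ssh2 took place 2 in both groups, ahead of Limk2 at place 3.

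**Figure D2:**
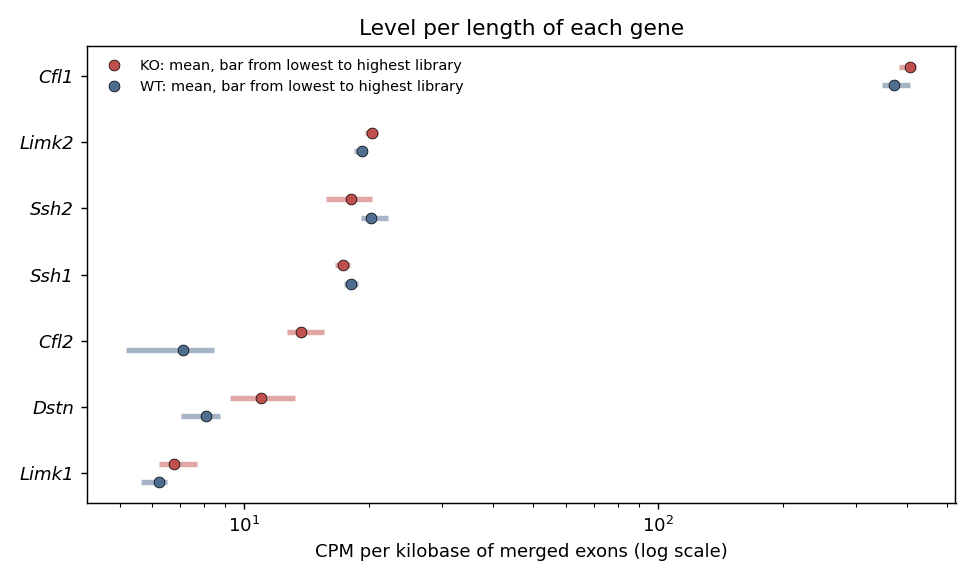
Level of each gene in CPM per kilobase of merged exons on a log axis, with KO above WT in each row; points are group means and bars run from the lowest to the highest library. Cfl1 lies at 348 to 420 in all libraries, and the Cfl2 bar of KO (12.7 to 15.6) lies clear of that of WT (5.19 to 8.45).

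The LIM kinases were slightly higher in KO on average, within overlapping groups. Limk1 was at 55.2, 49.1, 44.7 and 44.6 CPM in KO 1 to 4, against 45.4, 46.7, 45.7, 40.4 and 44.8 CPM in WT 1 to 5. KO 1 and KO 2 lay above all WT libraries, while KO 3 and KO 4 lay among them. Its log2 fold change was 0.12 ± 0.07 (SE), 0.05 without KO 1 and 0.09 without KO 1 and KO 4. Limk2, the more abundant kinase gene per length by 3.05 ± 0.351 times in KO and 3.10 ± 0.226 times in WT (SD), was at 120, 128, 125 and 125 CPM in KO 1 to 4, against 120, 112, 118, 119 and 118 CPM in WT 1 to 5. The KO 1 value lay among those of WT and the other 3 KO values lay above them. The log2 fold change of Limk2 was 0.09 ± 0.04 (SE), and 0.12 without KO 1 and KO 4.

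The slingshot phosphatases had lower means in KO. Ssh1 was at 160, 156, 151 and 148 CPM in KO 1 to 4, against 164, 162, 157, 155 and 167 CPM in WT 1 to 5, with a log2 fold change of -0.07 ± 0.04 (SE). KO 3 and KO 4 lay below all WT libraries. Without KO 1 and KO 4 the log2 fold change of Ssh1 was -0.06. Ssh2 was at 293, 378, 360 and 309 CPM in KO 1 to 4, against 413, 356, 369, 368 and 373 CPM in WT 1 to 5. KO 1 and KO 4 lay below every WT library, KO 2 lay above 4 of the 5, and WT 1 was the highest of all. The log2 fold change of Ssh2 was -0.17 ± 0.08 (SE), -0.13 without KO 4 and -0.01 without KO 1 and KO 4. The part of the cells marked by B and plasma cell transcripts in this difference was not tested.

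**Figure D3:**
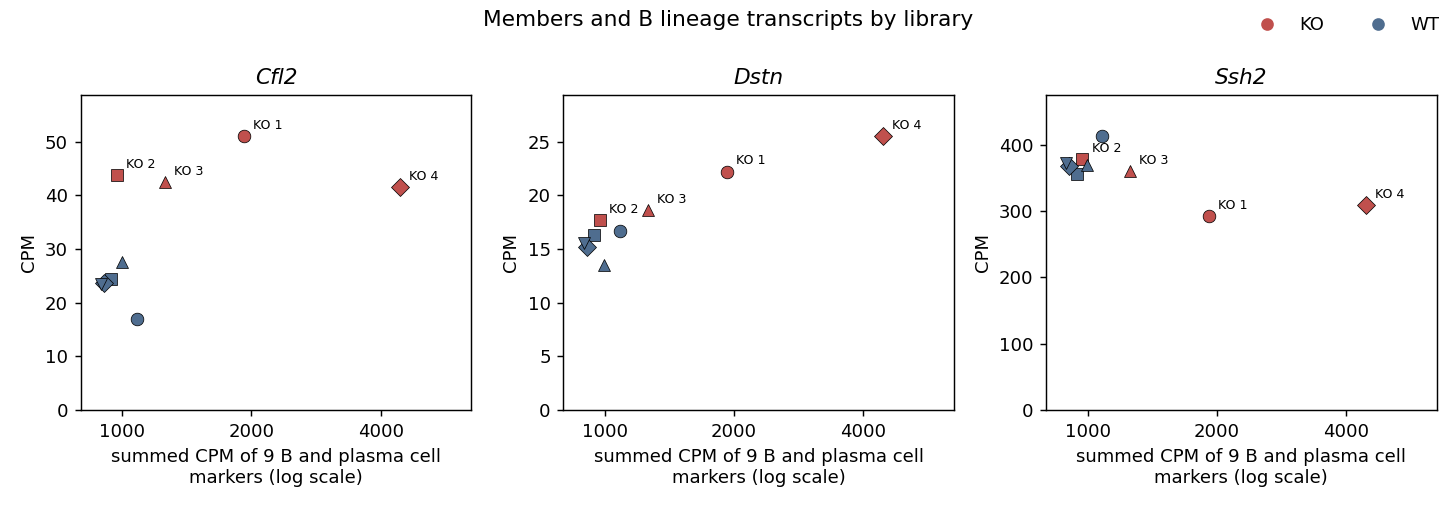
CPM of Cfl2, Dstn and Ssh2 in each library against the summed CPM of 9 B and plasma cell markers (log axis), with KO and WT in separate colours and symbols for replicate numbers. Cfl2 is at 51.0, 43.7, 42.4 and 41.5 CPM in KO 1 to 4, at marker sums of 1922, 973, 1257 and 4442 CPM, and Dstn is highest and Ssh2 lowest in KO 1 and KO 4.

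Levels of Limk1 and Limk2 set against those of Ssh1 and Ssh2 gave groups that did not overlap, although none of these genes did so on its own. The summed LIM kinases alone also gave groups that did not overlap, at 26.8 CPM per kilobase or more in KO and 26.1 or less in WT. The summed slingshots overlapped, with a highest KO value of 37.9 and a lowest WT value of 37.3. Among all tested genes taken singly, 9.10% had groups that did not overlap. Other enzymes that act on cofilin, such as those of Tesk1 and Ssh3, were not included. The summed LIM kinases over the summed slingshots, in CPM per kilobase, came to 0.808, 0.736, 0.736 and 0.803 in KO 1 to 4, against 0.640, 0.666, 0.682, 0.674 and 0.659 in WT 1 to 5. The mean ratio was 0.771 ± 0.0403 in KO and 0.664 ± 0.0159 in WT (SD). The KO mean was 0.736 without KO 1 and KO 4, which had the highest ratios and also the highest sums of B, plasma and myeloid cell markers. The part of those cells in the ratio was not tested. It was formed after the values of the 4 genes were seen and mixes genes from the contrast that chose the family, so it has no test. It concerns transcripts, and the phosphorylation of cofilin was not measured.

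Across libraries the 7 genes did not move as a block. After group means were subtracted, so that only differences within a group were left, the Pearson correlation over the 9 libraries was 0.892 between Limk2 and Ssh2 and 0.745 between Limk1 and Ssh1, and it was -0.445 between Cfl2 and Dstn. The libraries share depth scaling, and these values are a description of 9 points, chosen from 21 pairs.

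The wider actin machinery was examined in 6 lists of 74 tested genes, which were chosen with earlier results of these data known. Of these, 3 rose in KO and 0 fell by edgeR's test, 4.05% against 3.28% of all tested genes called. Over all tested genes 1.40% were called as higher and 1.88% as lower in KO. Given how the lists were chosen, nothing is read from this comparison. The higher direction held 23 genes at an unadjusted p under 0.05, with 15 called by DESeq2 and 2 by limma-voom. The lower direction held 4 such genes, with 1 called by DESeq2 and 0 by limma-voom. Among all tested genes DESeq2 called 455 as higher and 464 as lower, and limma-voom 137 and 209. The share of all tested genes at such an unadjusted p was not taken, so nothing is read from the counts at that p. The genes that rose were Lcp1, Actg1 and Abracl. The median log2 fold change over the 74 was 0.05, with 53 above 0.

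Lcp1, which encodes the filament bundler L-plastin, rose to 1471 ± 64.3 CPM in KO, against 1272 ± 60.8 CPM in WT, or 0.21 ± 0.04 on the log2 scale (SE, edgeR adjusted p = 0.0218). It was the only 1 of 21 genes for capping, bundling and other severing that passed. Actg1, the gamma actin gene, rose to 276 ± 16.0 CPM in KO, against 233 ± 16.5 CPM in WT (0.24 ± 0.05, edgeR adjusted p = 0.0296), although WT 2 at 262 CPM lay above KO 2 at 259 CPM. Beta actin, Actb, was at 0.23 with an edgeR adjusted p of 0.0620, and 1 of 6 actin and monomer-binding genes passed.

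Of the 14 tested genes for cofilin partners, 1 rose, which was Abracl, a small actin regulator known to promote cofilin function. It was at 86.2 ± 4.84 CPM in KO, against 74.7 ± 4.65 CPM in WT (0.21 ± 0.05, edgeR adjusted p = 0.0468). The cyclase-associated protein gene Cap1, whose product recycles cofilin-bound actin, was at 0.15 (edgeR adjusted p = 0.0580). Abracl did not pass with upper-quartile scaling (0.0519), with library size alone (0.0579) or by limma-voom (0.0557).

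The calls of these 3 genes were lost on leaving out any of several libraries, while their log2 fold changes moved little. Without 1 library these ran from 0.19 to 0.24 for Lcp1, from 0.21 to 0.28 for Actg1 and from 0.17 to 0.23 for Abracl. Without WT 3, WT 4, WT 5, KO 3 or KO 4 alone none of the 3 passed. Actg1 and Abracl also did not pass without WT 1 or KO 1. Without KO 1 and KO 4 together, edgeR adjusted p was 0.118 for Lcp1, 0.199 for Actg1 and 0.248 for Abracl, with log2 fold changes of 0.17, 0.18 and 0.17.

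The other lists had no gene past edgeR's test. All 9 genes of the Arp2/3 complex, which nucleates branched actin, had a log2 fold change above 0, with a median of 0.09, where 51.5% of all tested genes lay above 0. Of these 9, 5 had an unadjusted p under 0.05, 4 were called by DESeq2 and 0 by limma-voom. Arpc4 (0.13, edgeR adjusted p = 0.0797) and Actr2 (0.11, adjusted p = 0.113) had the smallest p. Of 21 nucleation-promoting factors and formins, 5 had an unadjusted p under 0.05, 1 was called by DESeq2 and 0 by limma-voom. Hcls1, a cortactin relative of blood cells, was at 0.15 (edgeR adjusted p = 0.0549) and the formin gene Fmnl3 at -0.14 (adjusted p = 0.126). Of the further enzymes that act on cofilin, 3 were tested and 1 had an unadjusted p under 0.05, with 0 called by DESeq2 or limma-voom. The slingshot gene Ssh3 was at -0.17 (edgeR adjusted p = 0.166) and the testis-type kinase gene Tesk1 at -0.11 (adjusted p = 0.387). Since the share of all tested genes at an unadjusted p under 0.05 was not taken, nothing is read from the counts of such genes in these lists. DESeq2 called 919 of the 12738 tested genes and limma-voom 346.

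**Figure D4:**
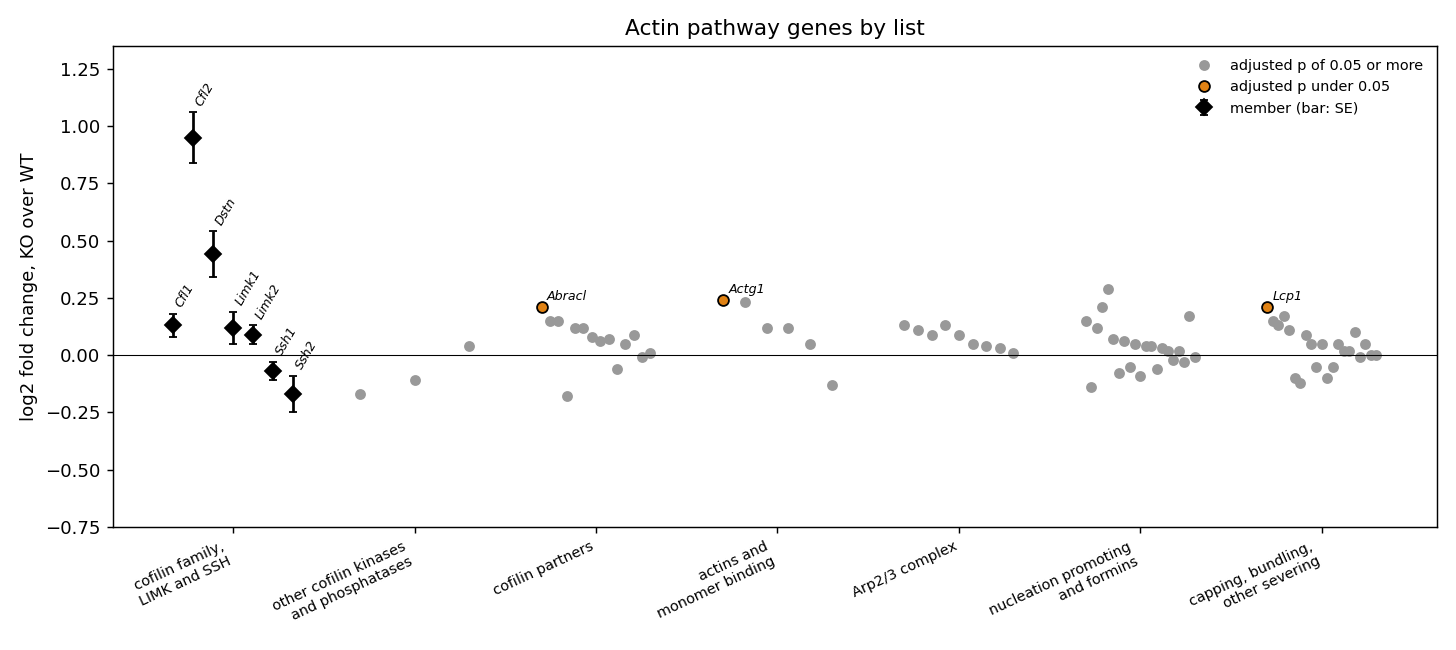
Log2 fold change (KO over WT) of the 7 genes (diamonds, bars are SE) and of 74 tested genes in 6 actin lists (circles, orange where the edgeR adjusted p is under 0.05). Cfl2, at 0.95, lies above every gene of the lists, whose values run from -0.18 to 0.29.

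The 7 genes lie at separate places in the genome except for pairs on shared chromosomes. In mm10 Cfl2 is at chr12:54858809-54862877 on the minus strand, Cfl1 at chr19:5490455-5495201 and Dstn at chr2:143915320-143943324, both on the plus strand. Limk1 (chr5:134656039-134688598) and Ssh1 (chr5:113937094-113993894) share chromosome 5, and Limk2 (chr11:3344256-3409189) and Ssh2 (chr11:77216287-77460220) share chromosome 11. Limk1, Limk2 and Ssh1 are on the minus strand and Ssh2 is on the plus strand. Cfl2 overlaps 1700081N11Rik by 231 bases at its start, on the opposite strand. Whether strand was used in counting is not stated, and reads of this partner cannot be set apart where the 2 genes overlap.

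Neighbours of Cfl2 were examined for a difference over the whole region. Of 13 tested genes with a start within 1 Mb, 0 passed edgeR's test, 2 had an unadjusted p under 0.05, and 0 were called by DESeq2 or limma-voom. Their log2 fold changes ran from -0.27 (Nfkbia) to 0.17 (Egln3). On either side of Cfl2 the nearest tested genes were Snx6, a sorting nexin gene, at 0.10 ± 0.04 (SE, edgeR adjusted p = 0.178), and Baz1a, a chromatin remodelling gene, at 0.14 ± 0.05 (adjusted p = 0.144). Snx6 and Baz1a were the 2 neighbours of Cfl2 with an unadjusted p under 0.05, both higher in KO. Around all 7 genes, 4 of 201 neighbours within 1 Mb were called, or 1.99% against 3.28% of all tested genes, and all 4 fell in KO. In the higher direction 21 had an unadjusted p under 0.05, with 2 called by DESeq2 and 0 by limma-voom. The lower direction held 20 such genes, with 10 called by DESeq2 and 4 by limma-voom. The share of all tested genes at an unadjusted p under 0.05 was not taken, so nothing is read from the neighbour counts at that p. Of the 12738 tested genes DESeq2 called 455 as higher and 464 as lower, and limma-voom 137 and 209.

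The 4 called neighbours lie near Cfl1, Limk1 and Limk2. Gtf2ird1, a transcription factor gene 232 kb from Limk1, was at 12.6 ± 0.517 CPM in KO, against 18.2 ± 1.02 CPM in WT (SD), or -0.53 ± 0.07 on the log2 scale (SE, edgeR adjusted p = 0.00341). The pseudogene Pisd-ps1, 283 kb from Limk2, was at 184 ± 30.2 CPM in KO, against 308 ± 12.7 CPM in WT (-0.75 ± 0.10, adjusted p = 0.00927), with an uncertain count since reads may be shared with its parent gene Pisd. The kinesin light chain gene Klc2 (-0.25, adjusted p = 0.0292) and the muscle glycogen phosphorylase gene Pygm (-0.41, adjusted p = 0.0430) lie 372 and 894 kb from Cfl1. Neither Klc2 nor Pygm passed without WT 3, WT 4, WT 5 or KO 4 alone, and Pygm also did not pass without WT 1, KO 1 or KO 2, nor Klc2 without KO 3. Without KO 1 and KO 4 together, Gtf2ird1 (-0.47, edgeR adjusted p = 0.0289) and Pisd-ps1 (-0.69, adjusted p = 7.82e-05) still passed. Klc2 (-0.26, adjusted p = 0.0843) and Pygm (-0.32, adjusted p = 0.252) did not.

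**Figure D5:**
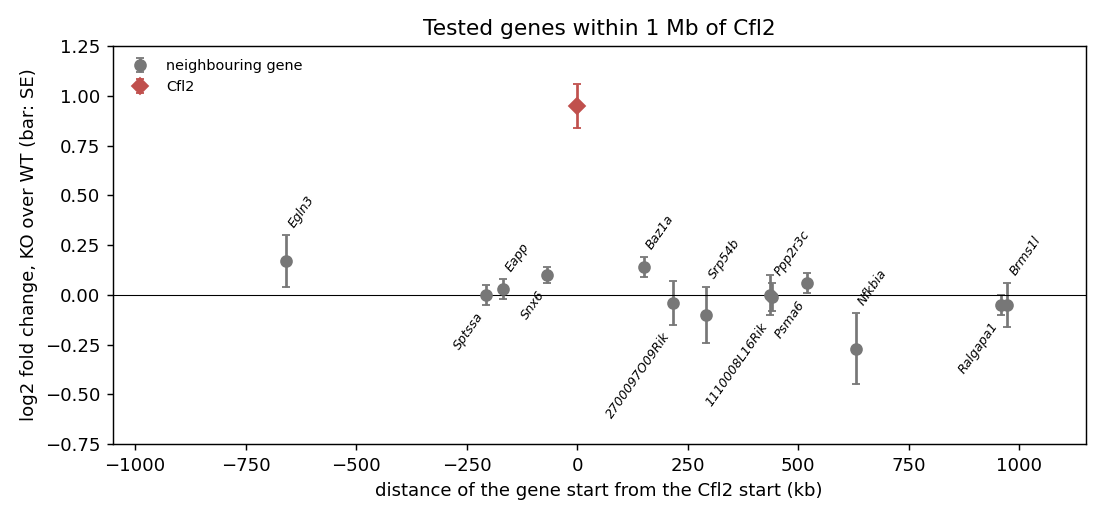
Log2 fold change (KO over WT, bars are SE) of Cfl2 and of the 13 tested genes within 1 Mb, against the distance in kb between gene starts. Cfl2 is at 0.95, and its neighbours lie between -0.27 and 0.17.

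Promoters were searched because Esrrg encodes a DNA-binding receptor and because cofilin genes are known targets of serum response factor. RefSeq gives 11 promoters for the 7 genes (GRCm38.p6, 250 bases before to 50 after the start), and none held TNAAGGTCA, the element of estrogen-related receptors, or the CArG box of serum response factor, on either strand. Of all 32851 promoters, 1.28% held TNAAGGTCA and 1.63% the CArG box, so no match in 11 says nothing of either factor. GC content was 75.3% in the Cfl2 promoter, 69.7% in that of Dstn and 54.7% in that of Cfl1. The Ssh1 promoter was at 80.0%, those of Ssh2 at 69.3 and 70.0%, and those of Limk1 at 58.0 and 72.7%. Those of Limk2 reached at most 63.3%. The median over all promoters was 52.7%. High GC content was therefore not particular to Cfl2 and Dstn.

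The genes whose log2 CPM followed that of Cfl2 most closely over the 9 libraries were Coa5 (Pearson correlation 0.965, Spearman correlation 0.900), Arl8b (0.963 and 0.867), Vps37a (0.962 and 0.933), Abcb9 (0.962 and 0.883) and Rhog (0.959 and 0.867). Much of this likeness is the step between the groups, and with group means subtracted the Pearson correlation was 0.833, 0.714, 0.841, 0.744 and 0.744 in the same order. Their own log2 fold changes were 0.09, 0.13, 0.15, 0.46 and 0.13. These are the highest over 9 libraries among the tested genes open to naming, which left out unnamed gene models and antigen receptor segments, among others. They are a description of pattern.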

How the data were processed

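Bulk RNA was sequenced from sorted splenic Treg cells of 4 KO and 5 WT mice, with stranded TruSeq libraries, per the labels' protocols. The deposited values are raw counts by gene symbol, and all 9 columns matched 1 sample each by title. STAR 2.7, DESeq2 and the mm10 build are listed, without their roles, in the submitters' processing notes. The sources used here name no counter, annotation or strand option.

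From these counts, CPM is the count divided by the library total and scaled to 1000000, and levels per length use merged exons of GENCODE M21. The test was edgeR's quasi-likelihood F test (edgeR 4.0.16, R 4.3.3, robust dispersion, TMM scaling, default expression filter), Benjamini-Hochberg adjusted over 12738 genes at a threshold of 0.05. SE is the log2 fold change divided by the root of F. Log2 CPM used a prior count of 2. The KO against WT test was tried on simulated counts of 12615 genes. It found 22.4% of genes changed 1.2-fold, 61.2% of those changed 1.5-fold, 75.5% at 2-fold and 96% at 4-fold. Of its calls there, 3.82% were false. Each gene was simulated independently, with no library set apart as KO 1 and KO 4 are, so these shares may not hold here. Labels give 1 animal per library. No library pair was a duplicate, since chi-square per degree of freedom was at least 2.6. Of the tested genes, 12168 were placed by symbol. Floors are 3 counts and cover counting error only.

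The 7 genes and all lists were chosen with earlier results of these data known. Named are the 7 genes, Esrrg, Foxp3, up to 4 called genes per list or else the 2 with the smallest p, the 5 genes most like Cfl2, the nearest tested gene on each side of Cfl2 and called neighbours. Actb, Cap1, Nfkbia, Egln3 and the single markers were added after their values were seen. A further list is not reported here. In the lists used, Pdxp is not analysed here, and Cap2, Vil1 and Tpm2 did not pass the expression filter. Alternatives were other scalings, filters and lengths, DESeq2 1.42.0, limma-voom 3.58.1, replicate blocks and leaving out libraries.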

Additional observations from a re-analysis of the deposited data

Results flagged for a closer look

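A sample far from the rest of its group appeared in 3 of 52 groups checked, all in WT 2, and chance gives about 1 in 20. Hcls1 was at 354 CPM in WT 2, Lcp1 at 1377 CPM, and the summed muscle and stroma markers at 15.7 CPM, each the highest of the 5 WT libraries. None of the 7 cofilin pathway genes had such a library in KO or in WT.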

How the results depend on the processing

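Among all tested genes edgeR called 418 (178 higher and 240 lower in KO). DESeq2 called 919 (455 and 464), and without KO 1 and KO 4 edgeR called 118 (45 and 73). Leaving out 1 library gave 97 to 697 calls, 32 to 335 higher and 64 to 362 lower. Of the 7 genes, 2 were called, and 1 by limma-voom, 1 without KO 1 and KO 4, and 1 to 3 without 1 library. Without KO 1 and KO 4 the log2 fold change was 0.24 for Dstn and -0.01 for Ssh2, and Tesk1 reversed to 0.03. For the other 5 of the 7 genes no setting tried moved the log2 fold change by more than the spread used for comparison.

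Calls in the lists moved as well. For cofilin partners (1 call) the counts were 0 with upper-quartile scaling, with library size alone and by limma-voom, 2 with a mean CPM of at least 5, 5 by DESeq2, 0 without KO 1 and KO 4, and 0 to 3 without 1 library. For actins (1 call) they were 4, 0 and 0 to 2 by DESeq2, without KO 1 and KO 4 and without 1 library. For capping and bundling (1 call) they were 2, 0 and 0 to 3 in that order. For the Arp2/3 complex (0 calls) DESeq2 gave 4, with 0 to 1 without 1 library. For nucleation factors and formins (0 calls) DESeq2 gave 1, the mean CPM filter 1, and leaving out 1 library 0 to 1.

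By title number, the deviations of same-numbered libraries from their group means correlated at 0.099, -0.0622, 0.1 and -0.0669. By bracketed number the correlations were 0.099, 0.0868, 0.0571 and -0.26, so neither numbering gave a sign of pairing. They were not set against those of differently numbered libraries, so whether the numbers pair the libraries is not settled. A replicate block by title number left 26 calls (12 higher, 14 lower in KO), with 0 of the 7 genes and 0 in the partner, actin and capping lists. A block by bracketed number gave 443 calls, with 2 actin genes and 1 nucleation gene.

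The length used moved the shares. With the longest transcript Cfl1 held 95.0% in KO and 96.6% in WT, and Dstn 2.11% in KO and 1.74% in WT. With no length correction Cfl1 held 96.5% in WT, Cfl2 3.65% in KO and 2.11% in WT, and Dstn 1.71% in KO and 1.41% in WT. The LIM kinase to slingshot ratio with the longest transcript, chosen after seeing the data, was 0.851 in KO and 0.723 in WT. Neighbours within 250 kb held 1 call in 59 (1.69%) and within 5 Mb 17 in 606 (2.81%). The cause of these differences was not tested.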
